A study of Homo sapiens with 13 samples.

Results

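The comparison set the 3 arrays of H1975 cells after 48 h of a starvation time course against the 3 arrays at its start, 0 h, over all named genes. The 6 arrays were taken by their titles from the 13 control arrays of the series. H1975 is a human lung adenocarcinoma line with an activated, mutated EGF receptor. The cells had been washed and kept overnight in medium without FCS (foetal calf serum) before 0 h, and then stayed in starvation medium for 0 or 48 h. No EGF was given to any of these cells, so both groups were starved, and by their titles they differed in time. The titles name no hybridisation batch, and a batch difference between the times was not tested. Longer starvation and longer time in culture cannot be told apart in this design. Total RNA was hybridised to GeneChip Human Gene 2.0 ST arrays. Of 39937 features in the value table, 15638 had a gene symbol, and the 12976 of them with a value of at least 0 on any array were tested.

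Cells deprived of serum receive little growth factor signal. As background, such cells slow their passage through the cell cycle and turn to stored and recycled nutrients. Type I and type II alveolar cells line the air sacs of the lung, and type II cells secrete surfactant, the film of lipid and protein that keeps the air sacs open. Many lung adenocarcinomas express type II cell genes under the control of the transcription factor NKX2-1.

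The values are SCAN scores. SCAN standardises each array on its own, background lies at about 0, and a difference of scores is not a log2 fold change, so no folds are given. Replicate 1 of 0 h stood apart. It correlated at 0.981 and 0.982 with the other 0 h arrays over the tested features, where these correlated at 0.996 with each other, and the replicate SD of a feature at 0 h had a median of 0.0564 (n = 3) with it and 0.0297 (n = 2) without it, against 0.0330 (n = 3) at 48 h. No label gives the origin of the replicates, whether from separate cultures or from one, and the p-values rest on the spread between arrays, which may be technical. The epithelial label held: EPCAM, an adhesion protein of epithelial cells, was 2.15, 2.22 and 2.22 at 0 h and 2.25, 2.23 and 2.18 at 48 h. The summed level of the 10 features of epithelial and lung adenocarcinoma markers was 11.6 to 13.04 at 0 h and 14.7 to 14.8 at 48 h. Much of the rise in this sum came from NAPSA, while EPCAM, KRT8 and KRT18 did not pass the test. The 2 tested features of the squamous list were also above background. SOX2 had means of 1.18 at 0 h and 1.08 at 48 h, and TP63 rose from 0.325 to 0.644. The summed level of 2 fibroblast features was 0.0953 to 0.229 at 0 h and -0.00387 to 0.0522 at 48 h, and 3 of 6 leukocyte features lay under 0.1 on all 6 arrays. Of the leukocyte list CD68, a lysosomal glycoprotein, was 2.32 to 2.65. The part of other cell types in the results was not tested.

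Between 0 h and 48 h 1280 features rose, which is 9.86% of those tested, and 1256 fell, which is 9.68%, in limma's test with Benjamini-Hochberg adjustment at 0.05 over 13 arrays. Without 0 h replicate 1 the counts were 1917 (14.8%) and 1644 (12.7%). The counts were 868, 834 and 825 risen and 795, 889 and 796 fallen without 48 h replicate 1, 2 and 3 in turn, and 1087 and 1163 risen and 1358 and 1095 fallen without 0 h replicate 2 and 3. The fits with and without 0 h replicate 1 both called 2508 features, and no feature was called in opposite directions, and the median difference over all tested features was -0.00155. In bulk RNA, fewer cells of a type and less RNA per cell cannot be told apart. A difference of at least 0.2 was reached by 647 risen and 725 fallen features, one of at least 0.5 by 62 and 167, and one of at least 0.8 by 9 and 24. The groups did not overlap for 2531 of the 2536 called features, where this held for 35.5% of all tested features. Rises and falls thus came in like numbers, and the large differences were more often falls.

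**Figure D1:**
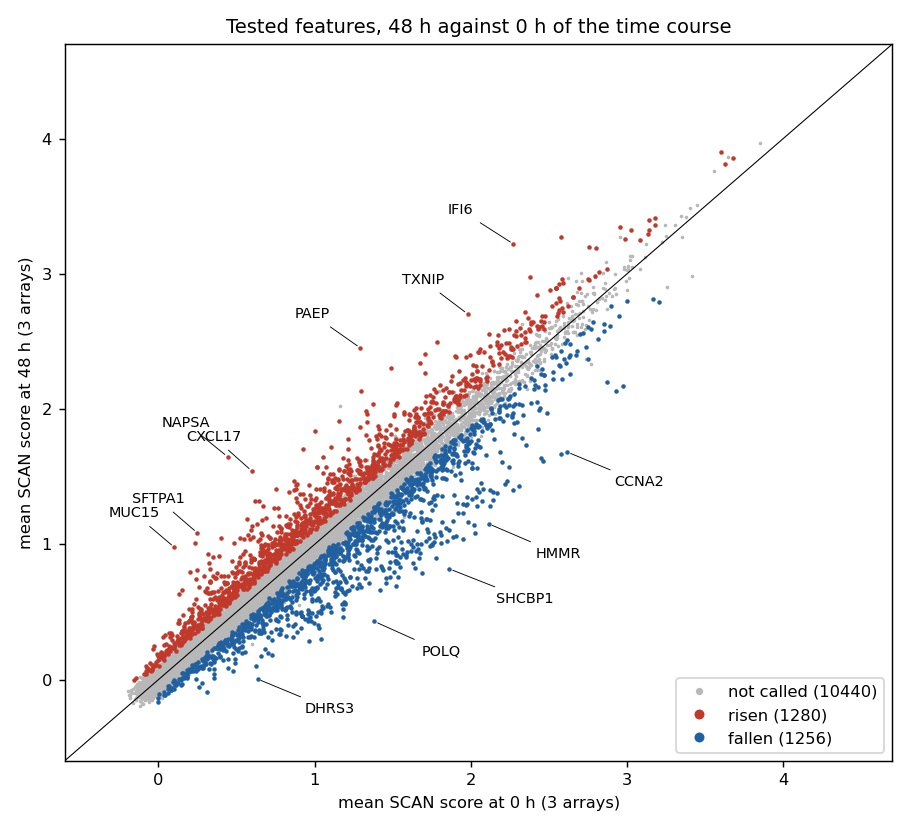
Mean SCAN score at 0 h (x axis) and at 48 h (y axis, 3 arrays each) of the 12976 tested features, with the 1280 risen in red, the 1256 fallen in blue and equal levels as a line. Most points lie near the line, and 167 falls and 62 rises lie at least 0.5 from it.

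The 15 largest rises held genes of the alveolar cell, of the interferon response and of secretion. IFI6, a mitochondrial protein induced by interferon, was 1.90, 2.45 and 2.47 at 0 h and 3.21, 3.21 and 3.24 at 48 h, and rose by 0.948 (SE 0.123, adjusted p = 0.000373 from limma). Replicate 1 lay well below the other 0 h arrays, and without it the rise was 0.761. ST6GALNAC2, which adds sialic acid to mucin-type glycans, was 1.46, 1.43 and 1.59 and then 2.27, 2.31 and 2.32, and rose by 0.808. TXNIP, an arrestin-like protein that binds thioredoxin and lowers glucose uptake, was 1.96, 1.98 and 1.99 and then 2.69, 2.70 and 2.72, and rose by 0.724. In both genes every 48 h array lay above every 0 h array by several times the spread of either group. TMEM45B, a membrane protein, rose by 0.775, and KLRC3, of a family of natural killer cell receptors, rose by 0.698 from 0.520, 0.668 and 0.675 to 1.34, 1.30 and 1.31. KLRC3 has close paralogs, whose RNA an array may not tell apart.

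The 15 largest falls were mostly of genes known for roles in the cell cycle. SHCBP1, a protein of the spindle midzone, had the largest, with 2.23, 1.59 and 1.77 at 0 h and 0.762, 0.875 and 0.819 at 48 h. It fell by 1.04 (SE 0.124) with 0 h replicate 1, the highest array, and by 0.863 without it. POLQ, the polymerase of theta-mediated end joining, was 1.54, 1.28 and 1.33 and then 0.466, 0.390 and 0.435, and fell by 0.953. CENPI, a kinetochore protein, fell by 0.940, TICRR, which helps to fire replication origins, fell by 0.878, and PBK, a mitotic kinase, fell by 0.899. In each the 0 h and 48 h arrays were far apart, with 24 h means of 1.58, 1.31 and 1.25 between them.

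**Figure D2:**
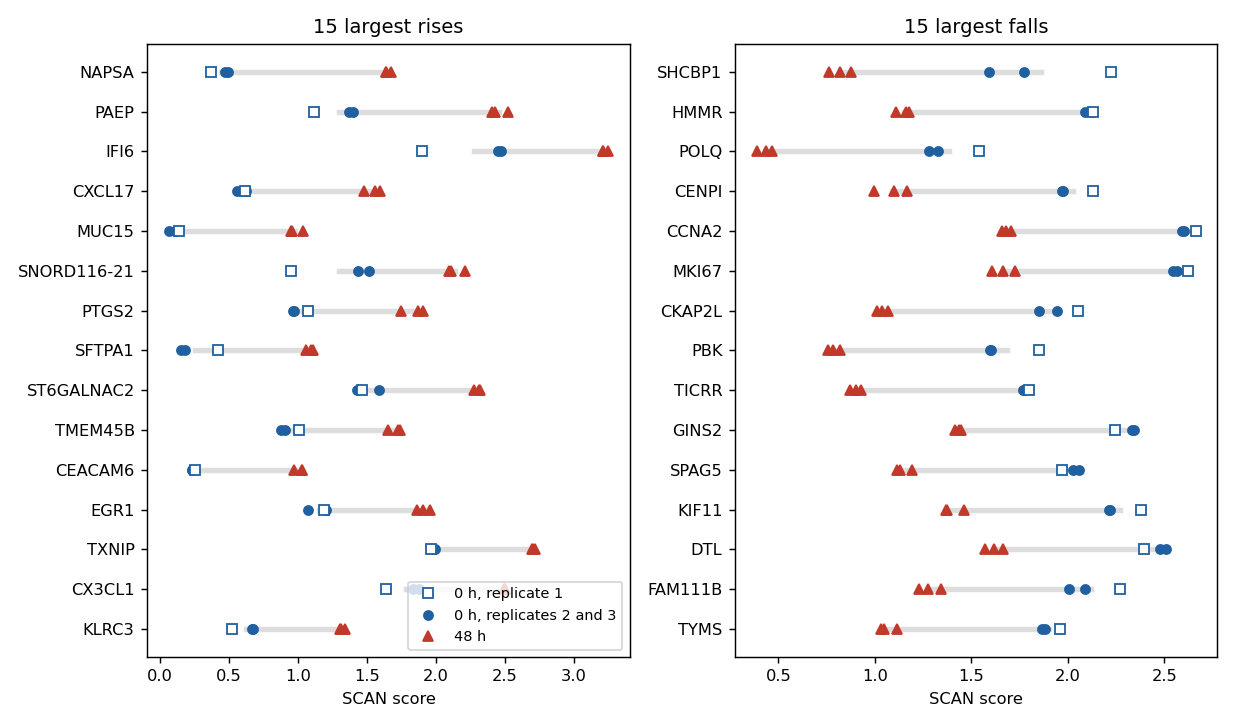
SCAN score on each of the 6 arrays (x axis) for the 15 features that rose most and the 15 that fell most among those called with and without 0 h replicate 1, with 0 h in blue (replicate 1 as open squares) and 48 h as red triangles, and a grey bar joining the means. No 0 h point overlaps a 48 h point in any row, and replicate 1 lies away from the other 0 h arrays for IFI6, SNORD116-21 and SHCBP1.

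Most tested interferon-stimulated genes rose, a larger share than in any other list of at least 8 features. Interferons bind receptors that activate a transcription factor complex that holds IRF9 and binds the interferon-stimulated response element of target promoters. Of 41 tested features of 53 listed genes 28 rose and 1 fell, beside 9.86% and 9.68% of all features, with a median difference of 0.206. The same shares over all features are the measure for every list below. Without 0 h replicate 1, 30 of the interferon features rose and 2 fell. The rises numbered 22 without 0 h replicate 2 or 3, and 19, 18 and 19 without 48 h replicate 1, 2 and 3. IFI44L, a negative regulator of the antiviral response, was 1.71, 1.66 and 1.66 and then 2.37, 2.34 and 2.32, and rose by 0.666 (SE 0.0334). OAS1, which makes the activator of RNase L, was 1.38, 1.37 and 1.38 and then 2.06, 1.99 and 2.07, and rose by 0.662. XAF1, an antagonist of XIAP in apoptosis, was 1.34, 1.28 and 1.38 and then 1.98, 1.94 and 1.96. In all of these the 48 h arrays lay above the 0 h arrays, and the 24 h means of 2.03, 1.69 and 1.73 lay between. Other risen members had changed little by 24 h. ISG15 had means of 0.617, 0.642 and 0.816 at 0, 24 and 48 h, and IFI44 had means of 2.18, 2.14 and 2.33.

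The transcription factors of this response rose with their targets. IRF9, the DNA-binding subunit of that complex, was 0.956, 1.11 and 1.15 and then 1.56, 1.56 and 1.61, and rose by 0.503. IRF7, the inducer of type I interferon genes, was 0.219, 0.253 and 0.399 and then 0.783, 0.755 and 0.767, and rose by 0.478. Among effectors SAMD9L rose by 0.564, IFITM1, which blocks virus entry, by 0.564, and BST2, which tethers virus particles, by 0.534. MX2, a GTPase against viruses, rose by 0.391. The order in time of factors and effectors was not tested. IFITM1 has near-identical paralogs, and its probes may read these too. HERC5, the ligase of the ISG15 modifier, went the other way, from 1.29, 1.04 and 1.04 to 0.839, 0.945 and 0.820, a difference of -0.258 (adjusted p = 0.0189), and its call was lost without 48 h replicate 1 or replicate 3. Of 8 features of class I antigen presentation 3 rose and none fell. HLA-C, a class I heavy chain, rose by 0.324, TAPBP, the loading chaperone tapasin, by 0.335, and B2M, the light chain, by 0.209. The other 5 did not pass the test, and without 0 h replicate 2 one of them fell.

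The promoters of these genes share letters that the choice of arrays did not use. The stretches below, from RefSeq on GRCh38.p14 in the direction of the gene, hold the core of the interferon-stimulated response element. They are from the 4 genes that rose most among list members with a match before the start. Members without such a match or without a window were passed over, so OAS1, which rose more than IFITM1, is not shown. Capitals mark every match to GAAA, any pair of bases and GAAA, and in BST2 the matches overlap.
IFI6, chr1:27672261-27672363, minus strand: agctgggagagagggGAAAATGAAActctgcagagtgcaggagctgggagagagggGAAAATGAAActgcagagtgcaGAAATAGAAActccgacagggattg
IFI44L, chr1:78620360-78620399, plus strand: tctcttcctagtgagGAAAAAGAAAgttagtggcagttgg
IFITM1, chr11:313985-314024, plus strand: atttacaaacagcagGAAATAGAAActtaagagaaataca
BST2, chr19:17405730-17405775, minus strand: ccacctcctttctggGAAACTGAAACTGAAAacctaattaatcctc

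IFI6 held 3 matches in tandem, of which 2 stand in a repeated stretch, and BST2 held 2. Windows of 250 bases before to 50 after the start were searched on both strands for 9277 tested genes. The core was present in 22 of 34 windows of the interferon list (64.7%), in 2.86% of all tested genes and in 3.65% of all 27305 windows of the table. Among all risen genes the share was 4.25%, and among all fallen genes 1.99%. The interferon list was drawn from genes known to answer interferon, so the share describes the list and not the time course.

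Some genes of the alveolar type II cell rose. Of 14 surfactant and type II features 6 rose and none fell, beside 9.86% and 9.68% of all features. Without 0 h replicate 1, 6 rose and 1 fell. The median difference was 0.113, and without 48 h replicate 2 or replicate 3 the count of rises was 5. FOXA2 was the fall, at 1.15, 1.33 and 1.33 at 0 h and 1.11, 1.09 and 1.13 at 48 h. Its difference was -0.221 without 0 h replicate 1, and -0.159 with it, which did not pass. SFTPA1, the surfactant protein A1, was 0.416, 0.176 and 0.153 at 0 h, 0.598 on average at 24 h and 1.06, 1.09 and 1.11 at 48 h, and rose by 0.837 (SE 0.0671, adjusted p = 1.46e-05 from limma). It moved from near background to a clear signal, though SFTPA2 is a near-identical copy that the probes may also read. HOPX, a homeodomain protein of type I and progenitor cells, was 0.190, 0.0810 and 0.180 and then 0.647, 0.721 and 0.615, and rose by 0.511. SFTPB, the surfactant protein B, remained dim, at 0.0954, 0.0328 and 0.0302 and then 0.243, 0.175 and 0.248. LPCAT1, which makes surfactant phosphatidylcholine, rose by 0.186. NKX2-1 had 2 features, of which one rose from 0.228, 0.207 and 0.371 to 0.442, 0.467 and 0.489, a call lost without 48 h replicate 2 or replicate 3, and the brighter one had a difference of 0.131 that did not pass.

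Some airway and mucosal genes rose beside them. Of 8 features of club, goblet and ciliated cells 4 rose and 1 fell. SLPI, a protease inhibitor of airway fluid, was 0.259, 0.296 and 0.446 and then 0.575, 0.550 and 0.556. AGR2 and SPDEF, a folding factor and a transcription factor of mucous cells, rose by 0.175 and 0.177. FOXJ1, the regulator of motile cilia, was dim at 0.227, 0.394 and 0.240 and then 0.164, 0.149 and 0.0993, and fell by 0.150 (adjusted p = 0.0480), a call lost without any of the other 0 h or 48 h arrays except 0 h replicate 1. CEACAM6, an adhesion protein of the apical membrane, was 0.250, 0.230 and 0.231 and then 1.03, 0.967 and 1.02, and rose by 0.770. CEACAM5, the carcinoembryonic antigen, was 0.166, 0.162 and 0.0758 and then 0.684, 0.552 and 0.674, and rose by 0.502. Of 6 features of this family 4 rose and none fell, and the 2 named share long similar stretches. Among mucins and their glycosyltransferases 4 of 14 features rose and 2 fell, beside 9.86% and 9.68% of all features. GALNT12, which starts O-glycans, fell from 1.85, 1.72 and 1.73 to 1.35, 1.33 and 1.39. Without 48 h replicate 1 or 3, 1 of the 14 features fell.

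In the list of epithelial junctions there were rises and no fall. Of 40 tested features 18 rose and none fell, with a median difference of 0.104, and without 0 h replicate 1 20 rose and none fell. Without 0 h replicate 2, 12 rose, and without any other array at least 13. CLDN1, a tight junction claudin, was 0.741, 0.606 and 0.661 and then 1.31, 1.22 and 1.33, and rose by 0.614 (SE 0.0461). CDH3, the P-cadherin of adherens junctions, was 0.965, 0.988 and 0.963 and then 1.27, 1.31 and 1.34. PPL, the periplakin of desmosomes, was 0.972, 0.925 and 0.968 and then 1.29, 1.28 and 1.28. The rises in CDH3 and PPL were 0.338 and 0.328, smaller than that in CLDN1, and all lay outside the spread of the replicates. CLDN3 rose by 0.406, LSR, a tricellular junction receptor, by 0.377, ESRP2, an epithelial splicing factor, by 0.277, and DSP, the desmoplakin, by 0.274. Among keratins 2 of 12 features rose, beside 9.86% of all features, KRT80 by 0.330 and KRT15 by 0.191, and 4 rose without 0 h replicate 2. Mesenchymal genes were split, with 4 of 20 features risen and 3 fallen, beside 9.86% and 9.68% of all features. The rises numbered 2 without 0 h replicate 3 or 48 h replicate 1, 1 without 48 h replicate 2 or 3, and 6 without 0 h replicate 1. AXL, a receptor tyrosine kinase, was 1.19, 1.23 and 1.21 and then 0.952, 0.970 and 0.939, and fell by 0.257, and SNAI2, a repressor of cadherin genes, fell by 0.198.

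Basement membrane genes changed in both directions. LAMB3 and LAMA3 encode laminin chains of epithelial basement membranes. LAMB3 was 1.75, 1.87 and 1.90 and then 2.07, 2.09 and 2.10. LAMA3 was 1.65, 1.52 and 1.55 and then 1.21, 1.23 and 1.25. The beta chain thus rose by 0.249 while the alpha chain fell by 0.343. AGRN, a heparan sulphate proteoglycan, rose by 0.372. Among YAP and SRF (serum response factor) target genes 8 of 18 features rose and 3 fell, THBS1, a matrix glycoprotein, by 0.375 upwards, and 1 fell without 48 h replicate 1 or 3. Of 31 actin and motility features 10 rose, a larger share than the 9.86% of all features, and 3 fell, near the 9.68%. ZYX, a protein of focal adhesions, was 1.24, 1.29 and 1.34 and then 1.61, 1.62 and 1.62. DIAPH3, a formin that also serves cytokinesis, fell from 1.26, 1.15 and 1.13 to 0.552, 0.513 and 0.501. Without 48 h replicate 1, 2 and 3, 6, 6 and 5 of these features rose.

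**Figure D3:**
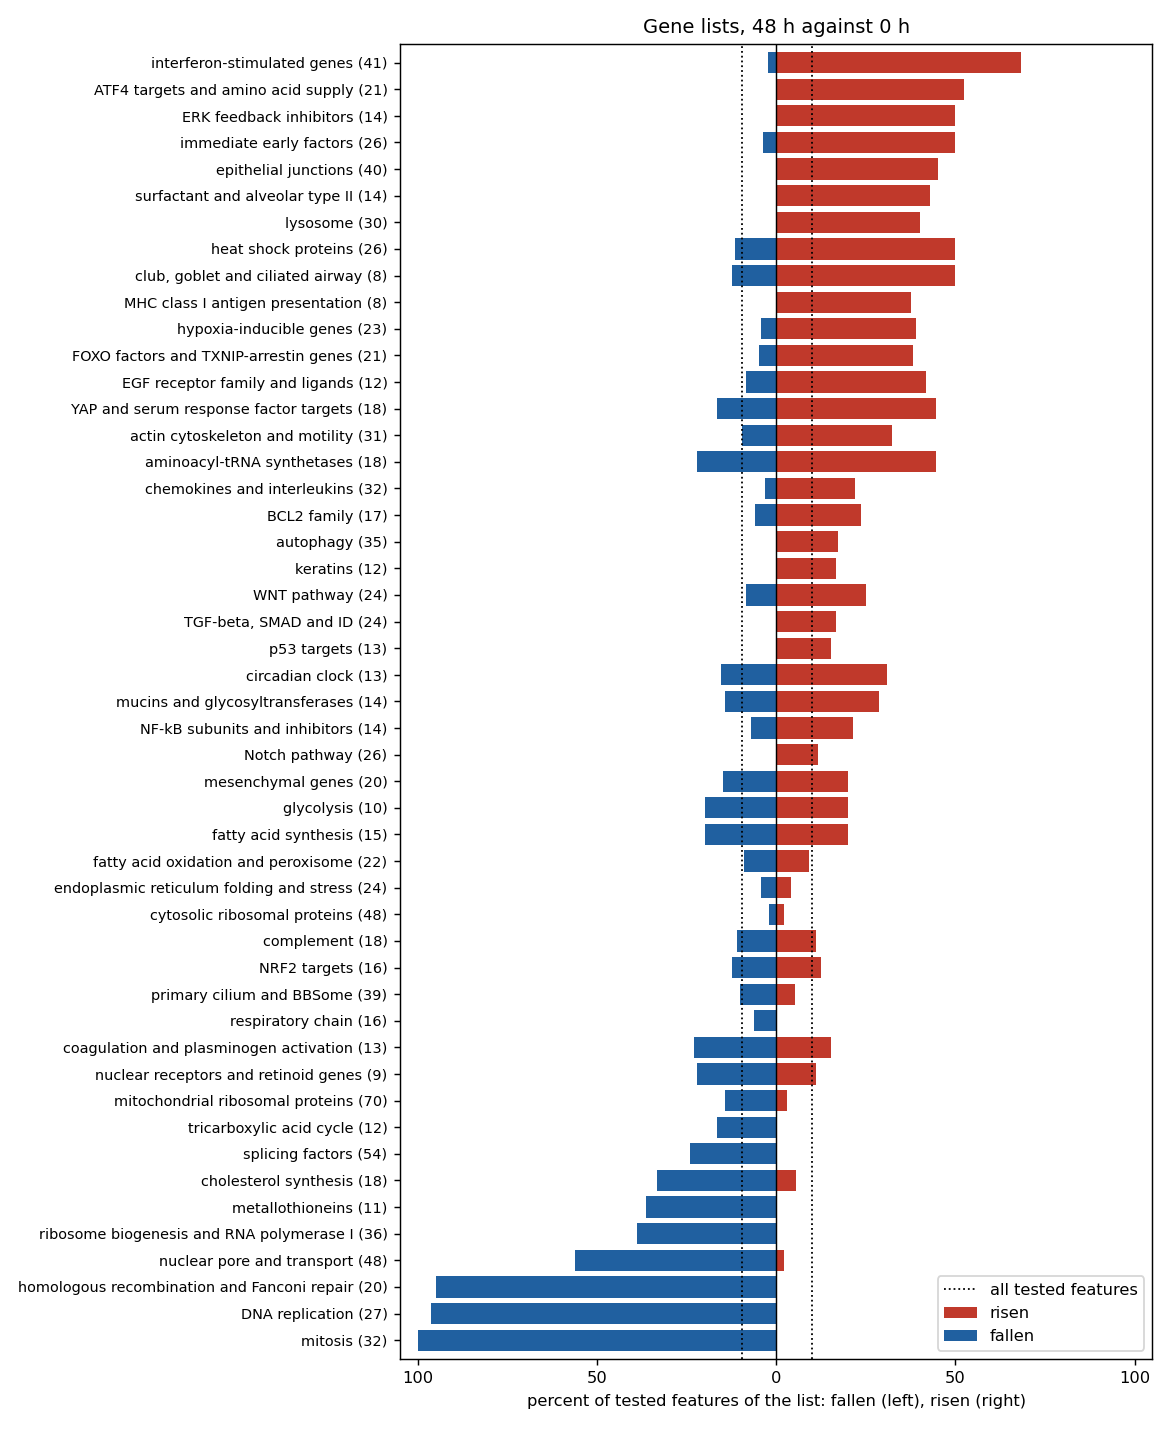
Share of the tested features of each gene list that rose (red, right) or fell (blue, left), for lists of at least 8 features with the number of features in brackets, and dotted lines at the shares over all tested features (9.86% and 9.68%). Interferon-stimulated genes stand at the top with 28 of 41 risen, and mitosis at the bottom with 32 of 32 fallen.

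Some secreted factors and their receptors showed large changes. Of 32 chemokine and interleukin features 7 rose and 1 fell. The share of rises was above the 9.86% of all features and that of falls below the 9.68%. The median difference was -0.0128, and the fall was not called without 0 h replicate 3 or 48 h replicate 2 or 3. CX3CL1, a membrane-bound chemokine, was 1.63, 1.83 and 1.88 and then 2.50, 2.49 and 2.50, and rose by 0.716 (SE 0.0553). IL37, an anti-inflammatory cytokine, was 0.316, 0.299 and 0.344 and then 0.944, 0.932 and 0.914, and rose by 0.610. IL17RB, a receptor of the IL17 cytokine family, was 0.723, 0.668 and 0.721 and then 0.280, 0.348 and 0.322. ICAM1, the ligand of leukocyte integrins, was 1.12, 1.09 and 1.11 and then 1.75, 1.71 and 1.70, and rose by 0.614. All 4 genes had groups that did not overlap, as did 2531 of the 2536 called features, so this adds nothing to their calls. IL17RB alone of them was lower at 48 h. IL37 and IL17RB were chosen after their values were seen, and ICAM1 was named from the list of NF-kB subunits and inhibitors. KDR, a receptor of vascular endothelial growth factor, was 0.491, 0.281 and 0.384 and then 0.850, 0.943 and 0.942, and VEGFA, its ligand, was 1.44, 1.40 and 1.41 and then 1.82, 1.87 and 1.88. Of the other endothelial genes VWF and CLDN5 lay near background on all 6 arrays, and CDH5 was 0.247, 0.277 and 0.230 and then 0.0812, 0.0600 and 0.120.

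In the complement list 2 of 18 features rose and 2 fell, close to the shares over all features, and in the coagulation list 2 of 13 rose and 3 fell. Of the complement features 1 rose without 48 h replicate 2 or 3. C5, the component cleaved to start membrane attack, was 1.19, 0.887 and 0.959 and then 0.436, 0.510 and 0.456, and fell by 0.545 (SE 0.0675). CFI, the protease that cuts C3b, was 1.26, 1.06 and 1.10 and then 0.693, 0.678 and 0.672, and fell by 0.457. CFB, the protease of the alternative pathway, was 0.700, 0.702 and 0.720 and then 0.933, 0.924 and 0.947, and rose by 0.227. For C5 and CFI replicate 1 was the highest 0 h array, and without it they fell by 0.456 and 0.398. F3, the cellular receptor that starts coagulation, was 1.01, 0.761 and 0.898 and then 1.49, 1.45 and 1.41. TFPI2, a protease inhibitor related to its inhibitor, was 0.786, 0.715 and 0.686 and then 0.269, 0.264 and 0.346, and fell by 0.436. Matrix metalloproteinases rose where they moved: 5 of 13 features rose and none fell, beside 9.86% and 9.68% of all features. MMP28, an epithelial member, was 0.386, 0.326 and 0.346 and then 0.943, 0.838 and 0.950, and MMP13, a collagenase, was 1.54, 1.53 and 1.52 and then 2.04, 2.02 and 2.07.

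Lists of nutrient supply and stress differed in the share of members that rose. ATF4 is a transcription factor whose translation increases when amino acids are scarce. Of 21 features of its targets and of amino acid supply 11 rose and none fell, with a median difference of 0.145, and without 0 h replicate 1 13 rose and 1 fell. SLC7A11, the cystine transporter, was 2.10, 1.91 and 1.90 and then 2.38, 2.38 and 2.39. STC2, a secreted glycoprotein, was 1.09, 0.991 and 1.11 and then 1.42, 1.39 and 1.36. DDIT3, the factor CHOP, rose by 0.329, and DDIT4, an inhibitor of mTORC1, rose by 0.327. SESN2, a leucine sensor upstream of mTORC1, was 0.700, 0.805 and 0.777 and then 1.03, 1.19 and 1.06, with a 24 h mean of 1.18, above its 48 h mean. Aminoacyl-tRNA synthetases, which charge tRNAs, were divided: 8 of 18 features rose and 4 fell. MARS1 rose by 0.362 and WARS1, which interferon also induces, by 0.271. The falls changed more than the rises without single arrays. RARS1 had a difference of -0.306, with 2.78, 2.38 and 2.43 at 0 h and 2.22, 2.25 and 2.19 at 48 h, and replicate 1 was the highest at 0 h. Without 48 h replicate 1, 2 or 3 it was not called, and 1 of the 4 falls was.

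Some relatives of TXNIP and targets of FOXO factors rose as well. Of 21 features 8 rose and 1 fell, with a median difference of 0.0905. Without 48 h replicate 2, 5 rose, and the fall was not called without 0 h replicate 3 or 48 h replicate 1 or 3. ARRDC4, another alpha-arrestin that lowers glucose uptake, was 0.746, 0.526 and 0.520 and then 1.09, 1.19 and 1.12, and rose by 0.536. ERBB3, the receptor of neuregulins, was 1.44, 1.40 and 1.37 and then 1.70, 1.74 and 1.75, and BCL6, a repressor that FOXO factors induce, rose by 0.331. Of 30 lysosome features 12 rose and none fell, NAPSA, shared with the type II list, among them, with a median of 0.107. CD63, a lysosomal tetraspanin, rose by 0.234, LAMP2, a membrane protein, by 0.193, and ARSA, the arylsulfatase, by 0.207. The rises numbered 17 without 0 h replicate 1, 5 without 48 h replicate 3 and 6 without 48 h replicate 2. Autophagy genes moved less, with 6 of 35 features risen and none fallen, GABARAPL2, a protein of the autophagosome, by 0.195. This count was 9 without 0 h replicate 1, and 2, 3 and 2 without 48 h replicate 1, 2 and 3.

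Hypoxia-inducible genes rose in part. Of 23 features 9 rose and 1 fell, with 12 and 1 without 0 h replicate 1. ANGPTL4, an inhibitor of lipoprotein lipase, was 1.11, 1.25 and 1.29 and then 1.79, 1.76 and 1.79, and rose by 0.563 (SE 0.0470). NDRG1, a stress-induced protein, rose by 0.367. CA12, a carbonic anhydrase of the cell surface, went the other way, from 1.15, 1.14 and 1.21 to 0.812, 0.814 and 0.780. SLC2A3, a glucose transporter, was 0.615, 0.530 and 0.512 and then 0.926, 0.914 and 1.02. Of 26 heat shock features 13 rose and 3 fell, but 10 of the risen ones read HSPA1A and HSPA1B, near-identical genes of the inducible HSP70, which cannot be told apart. One of them was 2.49, 2.57 and 2.58 at 0 h and 2.93, 2.87 and 2.89 at 48 h. Taken as symbols, 5 rose and 3 fell, HSPA4 and HSPA4L, co-chaperones of HSP70, by 0.193 and 0.281 downwards. ERN1, the sensor IRE1 of the unfolded protein response, rose by 0.395, and was the 1 rise among 24 features of that list, of which 3 rose without 0 h replicate 1. The 1 fall of that list, in DERL3, a factor of protein disposal from the endoplasmic reticulum, was not called without 0 h replicate 3 or any 1 of the 48 h arrays.

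Some genes of growth factor signalling rose. EGFR was 2.43, 2.49 and 2.49 and then 2.70, 2.68 and 2.69, and rose by 0.215. HBEGF, one of its ligands, was 0.534, 0.577 and 0.555 and then 0.841, 0.850 and 0.841. NRG1, the ligand of ERBB3, was 0.732, 0.677 and 0.665 and then 0.522, 0.481 and 0.503, and fell by 0.189. Of 12 features of the receptor family and ligands 5 rose and 1 fell, against 7 and 1 without 0 h replicate 1, and 3 rose without any 1 of the other 5 arrays. Of 14 feedback inhibitors of ERK signalling 7 rose and none fell, ERRFI1, which binds and inhibits EGFR, by 0.448 and SPRY4, a Sprouty inhibitor, by 0.315. Of 26 immediate early features 13 rose and 1 fell, and the fall was not called without 48 h replicate 2 or 3. Among receptors of other pathways LRP5, a WNT coreceptor, rose from 1.20, 1.41 and 1.38 to 1.86, 1.80 and 1.78 and NOTCH3 from 0.901, 1.03 and 1.10 to 1.33, 1.35 and 1.34. In the circadian clock, the repressors NR1D1, PER2 and PER1 rose by 0.299, 0.224 and 0.209, and CRY1 fell by 0.220. BOK, a pore-forming member of the BCL2 family, was 0.807, 0.975 and 0.940 and then 1.26, 1.30 and 1.32.

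**Figure D4:**
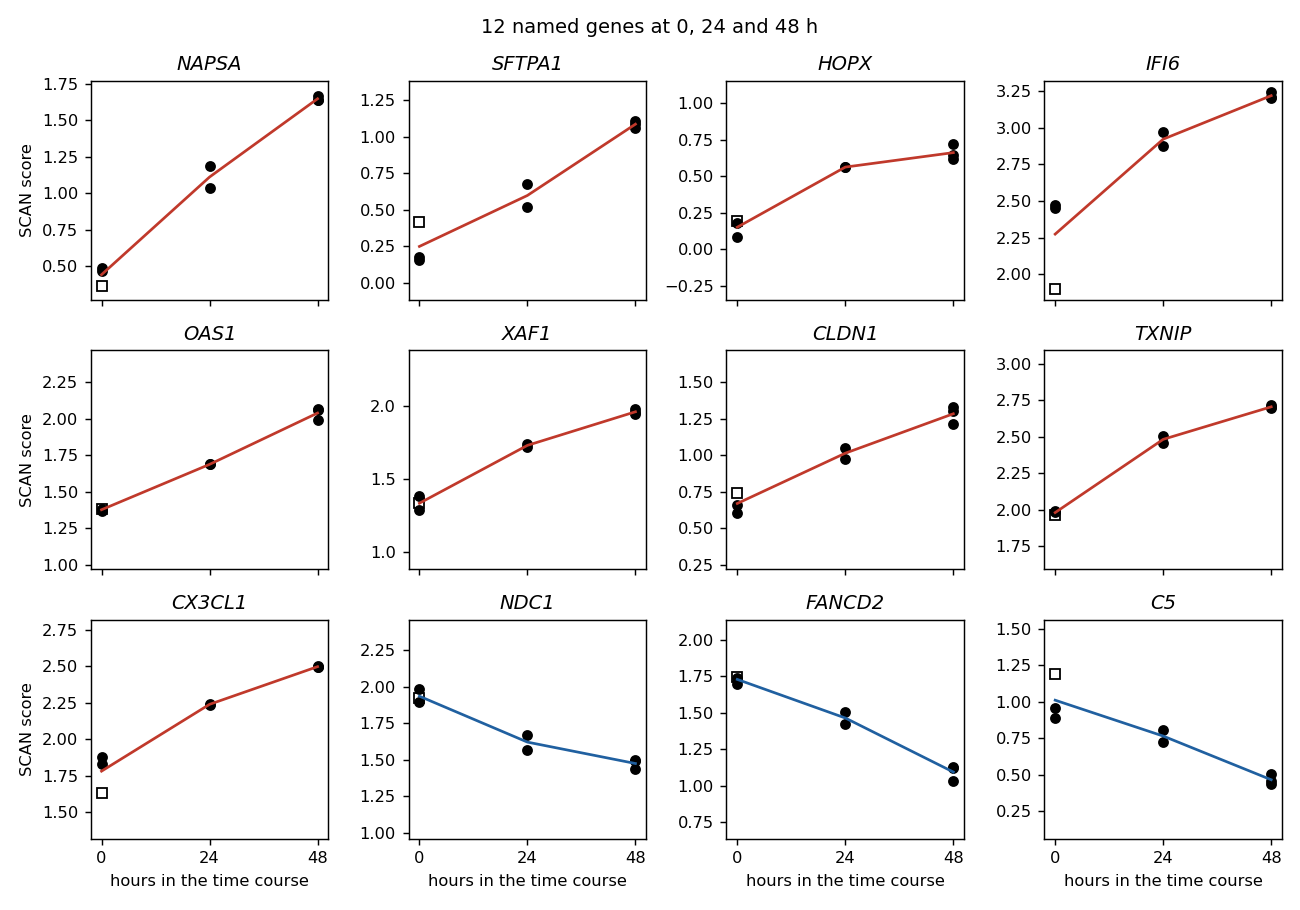
SCAN score (y axis, 1.5 units in every panel) of 12 named genes on each array at 0, 24 and 48 h (x axis), with 0 h replicate 1 as an open square and a line through the means of 3, 2 and 3 arrays. In each gene the 24 h mean lies between the 0 h and 48 h means, and 9 genes rise while NDC1, FANCD2 and C5 fall.

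Repair genes fell nearly as completely as those of DNA replication and mitosis. In these lists 26 of 27 replication features and 32 of 32 mitosis features fell and none rose, with median differences of -0.609 and -0.681. Of 20 features of homologous recombination and Fanconi repair 19 fell and none rose, with a median of -0.528. The falls numbered 24 to 26, 32 and 18 to 19 without any 1 of the 6 arrays. FANCD2, which is monoubiquitinated at DNA crosslinks, was 1.74, 1.70 and 1.74 and then 1.03, 1.12 and 1.13, and fell by 0.634 (SE 0.0391). Its 0 h and 48 h arrays did not overlap. EXO1, a nuclease of end resection, fell by 0.777, BRIP1, a helicase, by 0.508, and BRCA1 by 0.471. PRIM1, a subunit of primase, was 2.03, 2.06 and 2.13 and then 1.32, 1.35 and 1.29, which shows the same course in a gene of the replication fork.

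Promoters of the falling genes are printed for 2 elements. They are from the genes that fell most among list members with a match before the start, so each stretch holds its element by that choice. Members without such a match or without a window were passed over, so CDC6, which fell by 0.812, is not shown. In mitotic genes the cell cycle homology region, CHR, is a binding site of the DREAM and MuvB complexes, and in replication genes E2F factors bind near the start. The capitals mark TTTGAA or its reverse in the CHR genes and TTTNGCGC or its reverse in the others, where matches on both strands of MCM6 overlap. The genes fell by 0.966 (HMMR), 0.870 (KIF11), 0.757 (MCM6) and 0.697 (POLA1).
HMMR, chr5:163460589-163460630, plus strand: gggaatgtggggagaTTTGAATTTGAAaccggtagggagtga
KIF11, chr10:92593087-92593122, plus strand: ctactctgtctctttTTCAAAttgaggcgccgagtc
MCM6, chr2:135876507-135876610, minus strand: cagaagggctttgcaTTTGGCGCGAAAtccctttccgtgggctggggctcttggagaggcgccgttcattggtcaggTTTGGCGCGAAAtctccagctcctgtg
POLA1, chrX:24693766-24693803, plus strand: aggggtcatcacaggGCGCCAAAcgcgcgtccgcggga

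The HMMR stretch held the 6 letters in tandem, and the MCM6 stretch held the same letters at both ends, each with overlapping matches on the 2 strands. TTTGAA was present in 22 of 28 mitosis windows (78.6%), in 18.5% of all fallen genes, 8.92% of risen genes and 10.9% of all tested genes. It is a short word that stands in 15.4% of all windows of the table. TTTNGCGC was present in 9 of 23 replication windows (39.1%), in 6.87% of fallen, 1.38% of risen and 2.72% of all tested genes, and in 1.83% of all windows. GTCACGTG, the CLEAR element of lysosomal genes, was present in 6 of 19 lysosome windows (31.6%), in 3.61% of risen and 4.38% of fallen genes, and in 3.79% of all tested genes. It was also in 4 of 23 replication windows (17.4%), and in 2.53% of all windows. These are descriptions of letters in windows and were not tested.

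**Figure D5:**
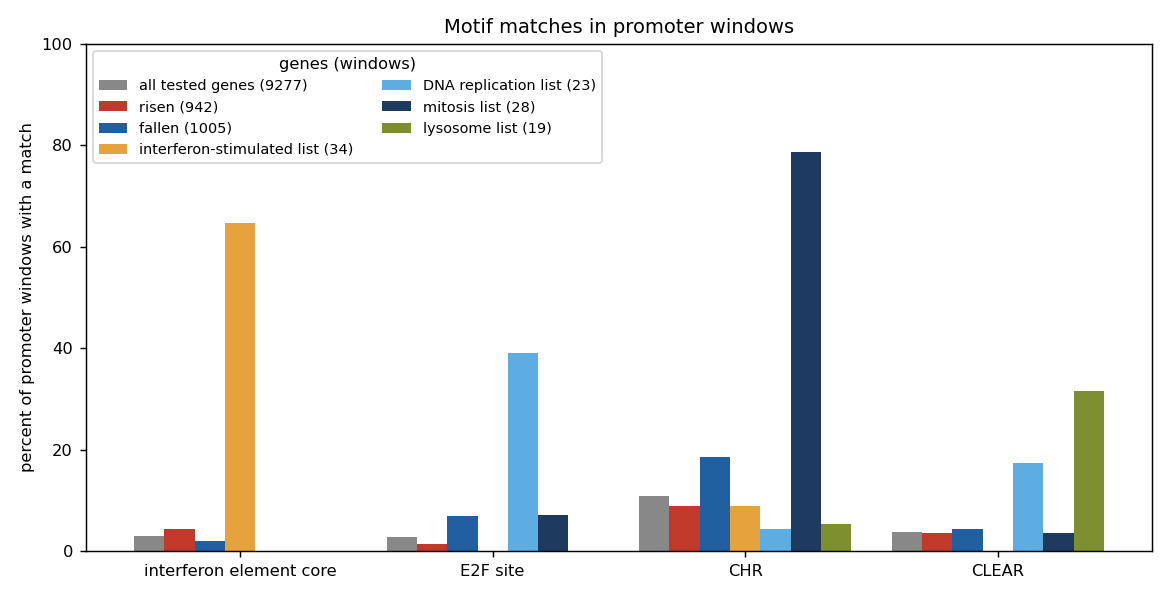
Percent of promoter windows (250 bases before to 50 after the start, both strands) with a match to each of 4 elements (x axis), for all tested, risen and fallen genes and for 4 gene lists, with the number of windows in the legend. The interferon element reaches 64.7% in the interferon list, the CHR 78.6% in the mitosis list and E2F 39.1% in the replication list.

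The nuclear pore and transport list fell beyond the cell cycle genes. Of 48 tested features 27 fell and 1 rose, with a median difference of -0.177, and 29 and 1 without 0 h replicate 1. The falls numbered 20 to 30 without 1 of the other arrays. NDC1, a transmembrane protein that anchors the pore, was 1.92, 1.90 and 1.98 and then 1.49, 1.50 and 1.43, and fell by 0.461 (SE 0.0401). NUP205, of the inner ring of the pore, was 2.29, 2.25 and 2.29 and then 1.89, 1.92 and 1.88. NUP155, of the same ring, was 2.41, 2.38 and 2.37 and then 2.03, 2.07 and 2.03. In all 3 genes the lowest 0 h array lay above the highest 48 h array. CSE1L, the exporter of importin alpha, fell by 0.352. NUTF2, which carries Ran into the nucleus, rose by 0.241. Symbols that start with NUP showed 17 of 22 features fallen and none risen, CEP 16 of 35 and KIF 14 of 38, the stems of nucleoporins, centrosomal proteins and kinesins.

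Genes of RNA and ribosome production fell more weakly. Of 36 features of ribosome biogenesis and RNA polymerase I 14 fell and none rose, with a median of -0.122, with 18 fallen without 0 h replicate 1 and 8 without 48 h replicate 1 or 3. NOLC1, a nucleolar phosphoprotein, was 2.10, 2.09 and 2.10 and then 1.80, 1.94 and 1.89, and HEATR1, a factor of rRNA processing, was 2.15, 2.07 and 2.06 and then 1.89, 1.88 and 1.87. Of 54 splicing features 13 fell and none rose, with 20 fallen and 1 risen without 0 h replicate 1 and 5 and 8 fallen without 48 h replicate 1 and 3. HNRNPM, an RNA-binding splicing regulator, fell by 0.290 and TRA2B, an SR-like factor, by 0.246. Of 70 features of mitochondrial ribosomal proteins 10 fell and 2 rose, near the 9.68% of all features, but 22 fell without 0 h replicate 1 and 5 and 4 without 48 h replicate 1 and 3. The 2 rises were not called without 0 h replicate 3 or any 48 h array. MRPS28, of the small subunit, fell by 0.249. Cytosolic ribosomal proteins were near their 0 h levels, with 1 of 48 features risen, 1 fallen and a median of -0.00849. RPL41 and RPS3 were the 2 called, with differences of 0.202 and -0.113, and without 1 array the rises numbered 0 to 4 and the falls 0 to 3. Without 0 h replicate 1, 1 rose and 3 fell, without 0 h replicate 2 none and 2, without 0 h replicate 3 4 and none, and without any 48 h array none were called.

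Sterol synthesis fell in part. Of 18 features 6 fell and 1 rose, with a median of -0.111, and 8 fell and 1 rose without 0 h replicate 1. INSIG1, which holds sterol regulatory factors in the endoplasmic reticulum, was 2.77, 2.85 and 2.82 and then 2.52, 2.51 and 2.52, and fell by 0.297. HSD17B7, an enzyme of the pathway, fell from 1.26, 1.06 and 1.08 to 0.781, 0.871 and 0.729, and ACAT2 fell by 0.313. SREBF2, the transcription factor of the pathway, was 1.57, 1.66 and 1.69 and then 1.83, 1.86 and 1.86, and rose by 0.209. Of 16 features of the respiratory chain CYC1, a cytochrome of this chain, alone fell, by 0.243, and 4 of these 16 fell without 0 h replicate 1 and 2 without 0 h replicate 2. Metallothioneins, which bind zinc and copper, fell in 4 of 11 features, with 7 without 0 h replicate 1 and at least 3 without any other array. Of 13 features of p53 targets 2 rose and none fell, too few features to set apart from the 9.86% and 9.68% of all features. The rises numbered 1 without any 1 array other than 0 h replicate 1, without which 1 also fell. In each of the other lists that are not described, with or without that array, 6 or fewer features were called in either direction. For the vacuolar ATPase no feature was tested, and for the proteasome and the integrins 1 each, so these were not analysed here.

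Few genes left or reached background. No feature had a 0 h mean under 0.1 and a 48 h mean of at least 0.4, and 3 had the reverse. DHRS3, a retinaldehyde reductase that retinoic acid induces, was 0.590, 0.686 and 0.629 at 0 h and -0.00626, 0.0111 and 0.00856 at 48 h, and fell by 0.631 (SE 0.0415, adjusted p = 4.25e-06 from limma). CENPW, a kinetochore protein, was 0.476, 0.414 and 0.439 and then 0.104, 0.0852 and 0.0615, and the other was MIR3122. DHRS3 had a 24 h mean of 0.270, so it was lower there already. PLAAT4, another retinoid-induced gene, was 0.613, 0.937 and 0.807 and then 0.569, 0.573 and 0.514, with a difference of -0.234 (adjusted p = 0.0340) that did not pass without any 1 of the arrays other than 0 h replicate 1.

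Small RNA genes changed in both directions. The array reads total RNA, so a signal at a microRNA locus may come from the primary or precursor transcript and does not measure the mature microRNA. Of 574 features of microRNA genes 28 rose (4.88%) and 15 fell (2.61%), fewer in share than the 10.6% and 10.9% of protein-coding features, and 43 and 18 did without 0 h replicate 1. MIR21, whose microRNA is abundant in many tumours, was 2.17, 2.08 and 2.09 and then 2.58, 2.58 and 2.50, and rose by 0.438 (SE 0.0375). MIR222 was 0.749, 0.710 and 0.645 and then 1.04, 1.10 and 1.04, and MIR27B was 0.558, 0.643 and 0.794 and then 1.06, 1.05 and 1.11. MIRLET7A2 rose by 0.587, from 1.41, 0.863 and 0.896 to 1.56, 1.70 and 1.67, with 0 h replicate 1 near the 48 h level and the call lost without 48 h replicate 2. MIR3939 fell by 0.522, from 0.899, 0.433 and 0.536 to 0.0779, 0.142 and 0.0827, and MIR3122 by 0.411, from 0.516, 0.461 and 0.456 to 0.0536, 0.108 and 0.0393. The 48 h arrays of both were near background.

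For each of the 6 loci named, 1 mature sequence from RefSeq on GRCh38.p14 is printed to show its seed, bases 2 to 8, in capitals. The opposite arms of let-7a-2, miR-27b and miR-222 are in the RefSeq table and are not printed.
hsa-let-7a-5p, chr11:122146568-122146589, minus strand: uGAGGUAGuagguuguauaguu
hsa-miR-21-5p, chr17:59841273-59841294, plus strand: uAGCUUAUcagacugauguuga
hsa-miR-27b-3p, chr9:95085505-95085525, plus strand: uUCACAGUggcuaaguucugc
hsa-miR-222-3p, chrX:45747036-45747056, minus strand: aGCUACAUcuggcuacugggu
hsa-miR-3939, chr6:166997830-166997851, minus strand: uACGCGCAgaccacaggauguc
hsa-miR-3122, chr1:212077622-212077643, plus strand: gUUGGGACaagaggacggucuu

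No seed is shared between these 6 sequences, and the other called microRNA loci were not compared. Of 25 features of small nucleolar RNAs 10 rose and 2 fell, but 6 of the risen ones repeat SNORD32B and 2 SNORD109A. SNORD116-21, a C/D box RNA of the imprinted SNORD116 cluster on chromosome 15, was 0.946, 1.43 and 1.51 and then 2.21, 2.09 and 2.11, and SNORD116-24 was 2.28, 2.57 and 2.89 and then 3.47, 3.13 and 3.21. Their copies are alike, and 0 h replicate 1 was the lowest array for both. Of 1042 features of long noncoding RNAs 56 rose (5.37%) and 32 fell (3.07%), below the 9.86% and 9.68% of all features. Without 0 h replicate 1 the counts were 103 and 44. LINC00664 was 1.55, 1.45 and 1.44 and then 0.812, 0.896 and 0.894, and FAM222A-AS1 was 1.02, 1.11 and 1.19 and then 0.471, 0.600 and 0.432.

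Other families named by the stem of their symbols are set beside the 9.86% of all features that rose and the 9.68% that fell. Without 0 h replicate 1 these shares over all features were 14.8% and 12.7%. Of 188 TMEM features 30 rose (16.0%) and 6 fell (3.19%), and 41 and 16 did without 0 h replicate 1. Of 21 tetraspanins 6 rose (28.6%) and none fell. Of 15 clustered protocadherins of the beta group 5 fell (33.3%) and none rose. PCDHB5 was 1.51, 1.66 and 1.57 and then 1.19, 1.27 and 1.28, and its paralogs share sequence. Of 457 ZNF features, mostly zinc finger factors, 26 rose (5.69%) and 38 fell (8.32%), below the shares over all features. Without 0 h replicate 1 59 rose and 41 fell. Keratin-associated proteins of hair, with 46 features, had no call in either direction, and without 0 h replicate 1 had 1. By chromosome, 12.8% of 974 features of chromosome 19 rose and 5.44% fell, where without 0 h replicate 1 158 rose and 99 fell. Both shares of chromosome 19 then lay nearer to the 14.8% and 12.7% over all features. Of 527 features of chromosome 10 8.16% rose and 14.0% fell, and 66 rose and 80 fell without that array.

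Replicate 1 of 0 h decided many calls. Without it 1053 more features were called and 28 were not called any more. The histone H2AC21 was 2.03, 3.14 and 3.13 at 0 h and 2.37, 2.33 and 2.31 at 48 h, so replicate 1 lay below every 48 h array, and the difference was -0.431 with it (adjusted p = 0.250) and -0.800 without it (adjusted p = 1.81e-09, both from limma). H3C11 and H4C11, core histones of replication, had differences of -0.429 and -0.361 with it and -0.676 and -0.544 without it. AREG, a ligand of EGFR, had 2 tested features, of which one rose with it, by 0.379, a call lost without any 1 of the other 5 arrays, and the other, at 2.11, 1.59 and 1.68 and then 2.08, 2.16 and 2.16, passed without it only. TMEM160 had a difference of -0.209 (adjusted p = 0.245) with it and -0.381 without it. Genes called only with it had small differences, CREM, a cAMP-responsive factor, -0.137 (adjusted p = 0.0439), and DHX38, a splicing helicase, -0.121 (adjusted p = 0.0423).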

How the data were processed

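RNA of H1975 cells had been hybridised to 2.0 ST gene arrays, 3 for 0 h and 3 for 48 h. The deposited values are scores that the authors made with SCAN, which corrects each array for probe background and standardises it alone, with NetAffx annotation 34 and no normalisation between arrays. The number of arrays limits the precision. Of the features with a symbol, 15426 were named by the platform annotation, updated through RefSeq, and 212 by a supplementary list of which 490 lines were held.

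Features with a highest value of at least 0 were fitted with limma 3.58.1 (R 4.3.3, lmFit and eBayes) over all 13 arrays with 1 level per time point, which leaves 5 residual degrees of freedom, and 4 without 0 h replicate 1. The p-values are two-sided and Benjamini-Hochberg adjusted over the 12976 features, and features with an adjusted p under 0.05 were called. Single arrays of other times add nothing to the spread. The fit was tested on simulated data. Counts, motifs and plots were made with Python 3.11.15, pandas 2.3.3, numpy 2.4.6 and matplotlib 3.10.9.

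The gene lists and members were chosen with earlier results of these data known. The genes named are the 15 largest rises and falls called with and without 0 h replicate 1, up to 3 risen and 3 fallen of each list by adjusted p, genes that left or reached background, up to 6 called only with or only without that array, and up to 6 RNA genes a direction. Further list members, and genes of no list such as IL37 or KDR, were chosen after their values were seen. The 18 alternatives tried cover samples, scaling, filters, variance model, array weights, a replicate block and repeated features. Some items are not reported here.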

Additional observations from a re-analysis of the deposited data

How the results depend on the processing

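Leaving out 1 of the 6 arrays moved the count of called features between 1621 and 3561, that of risen features between 825 and 1917 and that of fallen features between 795 and 1644. Array weights gave 1922 risen features, with a weight of 0.147 for 0 h replicate 1. Over all features of the table, with or without a symbol, 3896 were called and 2079 rose. Requiring a difference of at least 0.2 left 1372 called, 647 risen and 725 fallen. Quantile normalisation gave 1412 risen and 1288 fallen features, median centring 1292 and 1356, and the 6 arrays alone 1124 and 1059. No named feature changed direction under the 18 alternatives. The replicate numbers did not pair the arrays, since the deviations of same-numbered arrays correlated at -0.0871, -0.152 and -0.000756, and with the replicate number as a block 1071 features rose and 1067 fell, of 2138 called. Without 48 h replicate 3, 136 of 484 named features were no longer called, without 48 h replicate 1 134, and with the block 66. The cause was not tested. Scores near 0 lie at background, where a change in a gene cannot be seen.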
